A study of Rattus norvegicus with 132 samples.

Results

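The genes described here are 9 that the stomach is known for: the trefoil factors Tff1 and Tff2, the annexin Anxa10, the gastrokines Gkn1, Gkn2 and Gkn3, the secreted mucins Muc5ac and Muc6, and the mucin-modifying enzyme A4gnt. They were found by symbol among the 21837 genes of the count tables, where 8 of the 9 stand under their own symbol and Muc5ac was taken from the row AABR07006032.1, which RefSeq lists as a synonym of Muc5ac. Whether the authors' annotation means Muc5ac by that row was not tested, so the values given for Muc5ac are those of the row. The set was put together with results of these data in view: Tff1 and Anxa10 for being higher after irradiation, Gkn3 for being lower, and A4gnt for its level under compound Kushen powder. Values from those comparisons are therefore given as a description, without a test.

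Gastric surface cells cover the stomach with a mucus gel of Muc5ac and Tff1, while the mucous neck and gland cells below them secrete Muc6 and Tff2. Gkn1 and Gkn2 are small proteins secreted by the surface cells, Gkn2 in a complex with Tff1, and Gkn3 is their relative from neck cells. A4gnt adds the terminal sugar that marks gland mucin, and Anxa10 is a calcium-dependent membrane-binding protein found mainly in gastric epithelium. In chronically injured intestine, epithelium of this gastric kind is known from pathology as pyloric or gastric metaplasia.

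Sprague Dawley rats gave the epithelium of jejunum and colon, in 22 groups of 6 libraries. Non-irradiated rats gave 1 group for each tissue. All other groups received abdominal irradiation of 4 Gy given 5 times, starting on day 0 and ending on day 4, and were sampled on day 4 or day 7. They had no treatment (untreated), an oral vehicle of water, compound Kushen powder by mouth, an intraperitoneal vehicle of 0.25% Tween-80 with 25 mM HEPES (injected vehicle), or compound Kushen injection given intraperitoneally. Compound Kushen is a plant extract, given here in both preparations. The labels call the libraries biological replicates and name no rats, so the p-values measure the spread between libraries, and they do not say whether both tissues came from the same rats.

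The 132 libraries held between 17.2 M and 19.8 M counts (M, mega), with a median of 19.1 M, so 1 count is close to 0.05 CPM (counts per M counts of the library's normalised total). Library names carry a series digit: replicates 1 to 3 of the non-irradiated, untreated and oral groups belong to series 1 and replicates 4 to 6 to series 2, and every injected group belongs to series 3. Injected and other groups were therefore not tested against each other, because series and route cannot be told apart, and an order of levels over all groups is a description only. The tissue labels matched their markers, since non-irradiated jejunum held 4094 CPM of the lactase gene Lct against 0.124 in colon, and non-irradiated colon held 20130 CPM of the carbonic anhydrase gene Car1 against 0.549 in jejunum. These are tissue RNA samples, in which fewer cells of a type and less RNA per cell cannot be told apart.

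The RefSeq promoter table (build GRCr8) held 6 of the 9 genes, Anxa10, Gkn1, Gkn2, Gkn3, Muc6 and A4gnt. The 250 bases before the start site are printed for Anxa10, Gkn1 and Gkn2, whose levels moved together in the jejunum, and for Gkn3, whose level did not move with them. Capitals mark matches to 3 motifs, each searched on both strands, with no overlap among the matches. The motif of GATA factors, which act in gut epithelium, was searched as GATAAG. The box at which transcription is positioned was searched as TATAAA. The motif of AP-1, an injury-responsive factor pair, was searched as TGANTCA. The motifs were chosen after the sequences were seen. Positions below count back from the start site, and each sequence is given 5′ to 3′ in the direction of its gene.
Anxa10: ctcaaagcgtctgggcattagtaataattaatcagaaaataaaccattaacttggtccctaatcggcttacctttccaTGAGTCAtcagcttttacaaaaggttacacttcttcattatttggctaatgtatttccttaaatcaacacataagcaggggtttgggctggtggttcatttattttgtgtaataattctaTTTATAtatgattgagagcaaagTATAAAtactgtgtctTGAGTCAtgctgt
Gkn1: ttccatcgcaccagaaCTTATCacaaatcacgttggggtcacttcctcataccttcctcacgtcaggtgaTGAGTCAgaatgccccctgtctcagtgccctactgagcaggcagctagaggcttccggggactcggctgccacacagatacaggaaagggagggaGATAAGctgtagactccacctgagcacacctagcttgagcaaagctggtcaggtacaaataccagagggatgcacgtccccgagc
Gkn2: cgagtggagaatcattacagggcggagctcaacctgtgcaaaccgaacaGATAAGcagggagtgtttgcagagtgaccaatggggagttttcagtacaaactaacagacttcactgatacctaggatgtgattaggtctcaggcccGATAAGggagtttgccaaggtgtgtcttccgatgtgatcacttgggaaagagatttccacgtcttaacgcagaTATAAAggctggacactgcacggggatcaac
Gkn3: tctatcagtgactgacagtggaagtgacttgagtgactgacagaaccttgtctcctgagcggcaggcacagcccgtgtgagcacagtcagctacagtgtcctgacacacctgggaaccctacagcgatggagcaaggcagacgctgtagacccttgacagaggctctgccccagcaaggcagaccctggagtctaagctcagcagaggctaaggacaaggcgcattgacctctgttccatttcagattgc
The stretches lie at chr16:32504775-32505024 on the plus strand (Anxa10), chr4:121352706-121352955 on the minus strand (Gkn1), chr4:121375344-121375593 on the plus strand (Gkn2) and chr4:121390720-121390969 on the minus strand (Gkn3) of GRCr8, while the counts were made on another build. Anxa10 held TATA-box letters from -52 to -47 and from -29 to -24, and AP-1 letters from -172 to -166 and from -13 to -7. Gkn1 held GATA letters from -234 to -229 and from -85 to -80 and AP-1 letters from -180 to -174. Gkn2 held GATA letters from -201 to -196 and from -104 to -99 and TATA-box letters from -31 to -26. In the Gkn3 stretch none of these letters were found. Among 33469 promoters of the same length, 6.18% held GATAAG, 12.93% TATAAA and 6.34% TGANTCA. Gkn1, Gkn2 and Gkn3 are neighbours. RefSeq's span of Gkn2 over all its transcripts starts before the stretch printed here and takes in Gkn1, which lies on the other strand. The sources used here do not say whether the counting used strand, so reads of Gkn1 and Gkn2 may have been split between them, and their separate counts are uncertain.

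In the jejunum, 5 of the genes (Tff1, Tff2, Anxa10, Gkn1 and Gkn2) were at or near 0 without irradiation and were detected in most irradiated libraries, at higher levels on day 7 than on day 4. Gkn3 stayed between 0.763 and 1.81 CPM in all group means. Muc5ac, Muc6 and A4gnt were at most 0.299 CPM in the mean of each jejunum group.

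Tff1, which protects and repairs gastric surface epithelium, had 5 counts in the 6 non-irradiated jejunum libraries together, and 3 of those libraries had none. Untreated irradiated libraries ranged from 0 to 5.04 CPM on day 4, with a median of 0.630, and from 0.232 to 53.5 CPM on day 7, with a median of 9.29. The day-7 libraries all lay above the highest non-irradiated library, at 0.227 CPM, while the day-4 range overlapped it. Against non-irradiated jejunum the fitted log2 difference was 4.66 ± 1.57 (SE) on day 4 and 7.96 ± 1.43 on day 7, the latter 250-fold. Tff2, its relative from gastric neck and gland cells, had 2 counts in the non-irradiated libraries, 29 on day 4 and 306 on day 7. Its count ratios were 13.7 (95% interval of counting error 3.46 to 118) and 106 (29.0 to 878).

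Anxa10 had 3 counts in the non-irradiated jejunum, 46 in the untreated libraries of day 4 and 2641 in those of day 7. On day 4 it was not detected in 3 of 6 untreated libraries and reached 1.93 CPM, and on day 7 it ranged from 0.355 to 56.3 CPM with a median of 9.24. The day-7 libraries did not overlap the non-irradiated ones, which reached 0.122 CPM. The count ratio to non-irradiated jejunum was 14.5 (4.65 to 72.8) on day 4 and 609 (208 to 2954) on day 7. These intervals cover counting error only, leave out the wide spread between libraries, and are no test.

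Gkn1, a surface-cell secretion, had 2 counts without irradiation, 79 on day 4 (ratio 37.3, 9.99 to 313) and 304 on day 7 (ratio 105, 28.9 to 872). Gkn2, the partner of Tff1, had 2, 54 and 531 counts, with ratios of 25.5 (6.72 to 216) and 184 (50.6 to 1520). The intervals of both genes cover counting error only and are no test. The untreated day-4 libraries of Gkn1 began at 0.201 CPM, above the highest non-irradiated library at 0.0620, but on day 7 the lowest Gkn1 library was at 0.0444 CPM and overlapped. For Gkn2 the overlap was on day 4, and the day-7 libraries, from 0.174 to 8.65 CPM, lay above all non-irradiated ones. Gkn3, with 1.48 ± 1.05 CPM (SD, n = 6) in non-irradiated jejunum, was at 1.54 ± 0.386 on day 4 and 1.18 ± 0.748 on day 7, and its log2 differences were 0.06 ± 0.36 and -0.32 ± 0.36 (SE). For Gkn3 the sign depended on the series: on day 7 the difference was 0.94 within series 1 and -1.23 within series 2.

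Within each library series the 5 genes were again higher in irradiated untreated jejunum. For Tff1 on day 7 the difference was 6.88 within series 1 and 8.32 within series 2, against a non-irradiated group of 5 counts. Of the 6 members that passed the low-count filter in jejunum, 4 were called on day 4 (adjusted p under 0.05 in edgeR) and 5 on day 7, where 44.0% and 58.8% of all tested genes were called. The comparison is the one the genes were chosen on, and nothing is read from these counts.

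**Figure D1:**
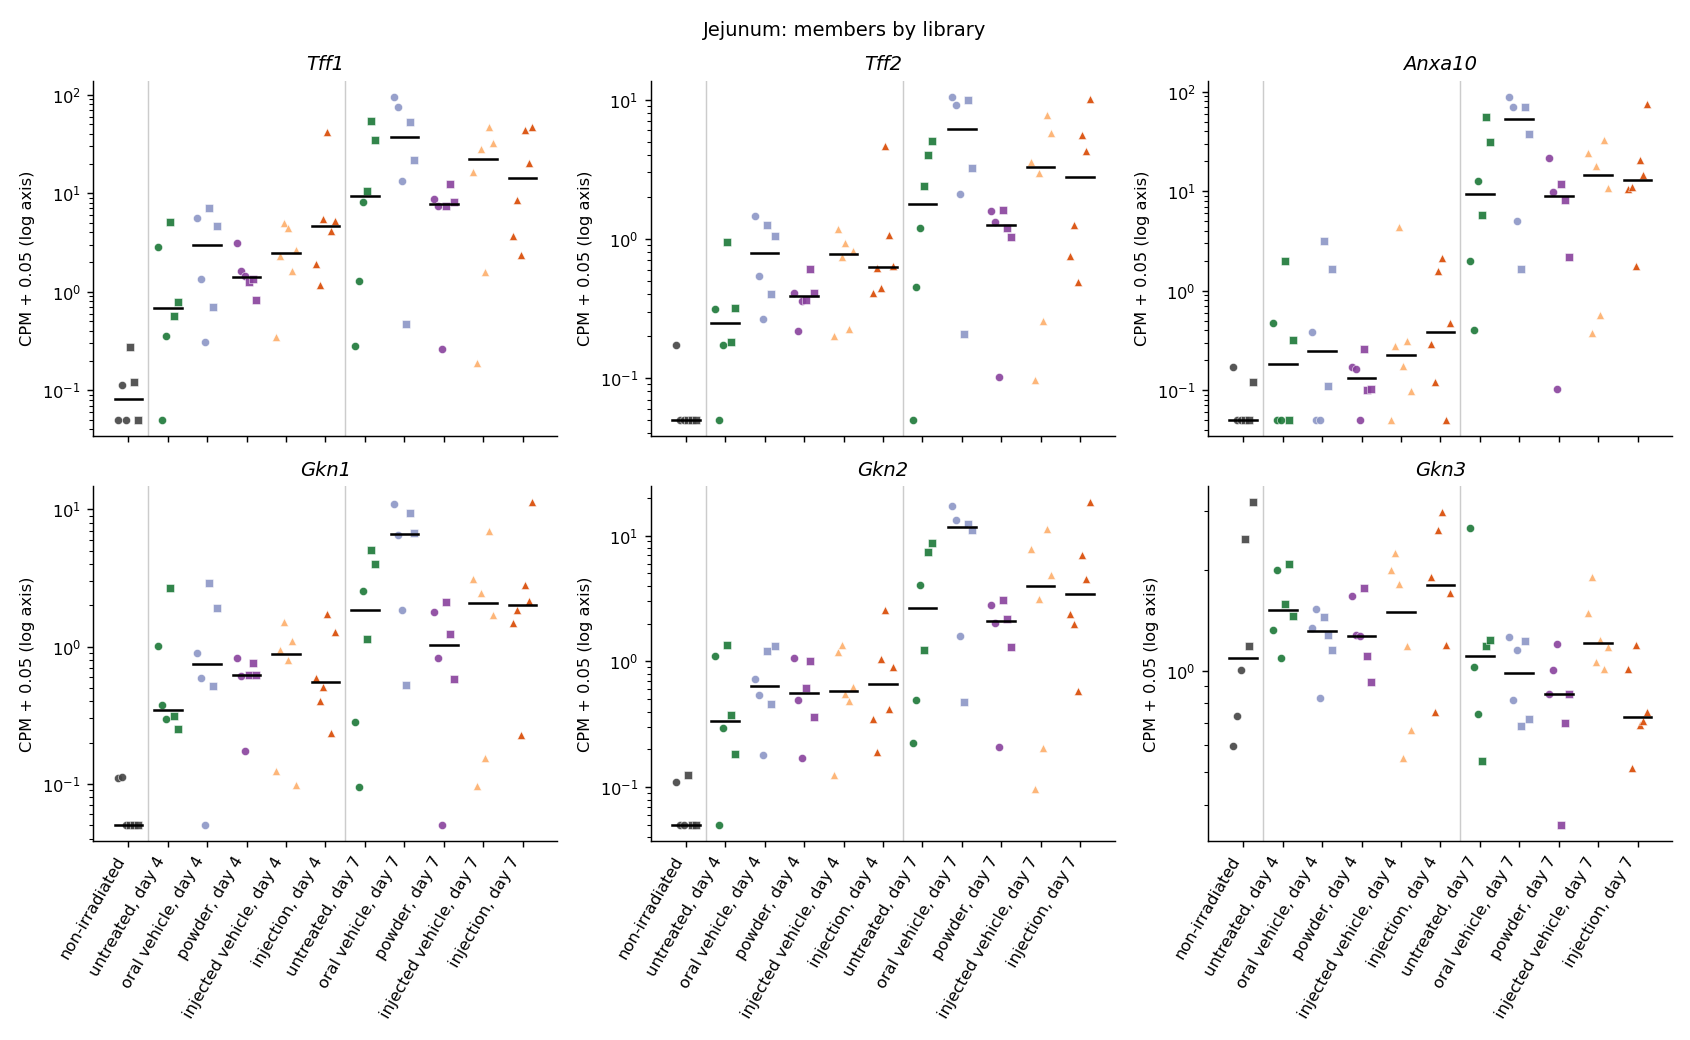
CPM plus 0.05 on log axes for 6 genes in every jejunum library, by group; circles, squares and triangles are library series 1, 2 and 3, black lines are group medians. The oral vehicle group of day 7 has the highest median for Tff1 (36.9 CPM), Tff2, Anxa10 (53.8), Gkn1 and Gkn2, and most groups of day 7 span more than a factor of 10, while Gkn3 shows no such step.

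The other arms showed the same genes. Tff1 on day 4 had medians of 2.93 CPM under oral vehicle, 1.36 under powder, 2.41 under injected vehicle and 4.58 under injection. On day 7 these were 36.9, 7.78, 22.1 and 14.2 CPM, and the lowest single libraries were at 0.422, 0.210, 0.139 and 2.30. In all 4 arms the ranges of the days overlapped, because 1 or more day-7 libraries stayed as low as those of day 4. Ordered by mean, Tff1 ran from oral vehicle day 7 (42.7 CPM) through injected vehicle day 7 (20.9), injection day 7 (20.8), untreated day 7 (18.0), injection day 4 (9.84), powder day 7 (7.33), oral vehicle day 4 (3.24), injected vehicle day 4 (2.68), untreated day 4 (1.56) and powder day 4 (1.55) to non-irradiated (0.0600). Only the steps from powder day 7 to oral vehicle day 4 and from powder day 4 to non-irradiated were wider than the pooled SD of the neighbours, and both lie within library series 1 and 2.

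Anxa10 was below 1 CPM in the mean of each of these arms on day 4. Its day-4 means were 0.848 CPM under oral vehicle, 0.0901 under powder, 0.825 under injected vehicle and 0.721 under injection, against 45.5 ± 36.6, 8.90 ± 7.63, 14.5 ± 13.1 and 22.4 ± 26.8 (SD, n = 6) on day 7. The injected vehicle mean of day 4 was carried by 1 library at 4.29 CPM, since the median was 0.176. In the order of its means, Anxa10 ran from oral vehicle through injection, untreated, injected vehicle and powder on day 7 down to the day-4 groups. The step from powder day 7 to the highest day-4 group, oral vehicle, was the only one wider than the pooled SD.

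The 5 genes were high and low in the same jejunum libraries. Over the 30 irradiated libraries of day 7, the 10 pairs among them had Pearson correlations of log2 levels between 0.892 and 0.970, and between 0.890 and 0.971 after each group's mean was taken out. The highest value of both ranges was that of Gkn1 with Gkn2, whose separate counts are uncertain. On day 4 the 10 correlations were lower, from 0.529 to 0.877. Many day-4 libraries held few or no counts of these genes, so counting error weighs more there, and its part was not tested. The same genes against Gkn3 gave -0.268 to -0.195 on day 7 and 0.202 to 0.375 on day 4. These are descriptions over libraries that share their group, series and depth. All 5 genes together exceeded the highest non-irradiated library in 15 of 30 libraries on day 4 and in 26 of 30 on day 7. By group on day 7 this was 4 of 6 untreated, 6 of 6 oral vehicle, 5 of 6 powder, 5 of 6 injected vehicle and 6 of 6 injection libraries. The highest non-irradiated libraries held only 1 to 3 counts of each gene, so a few counts suffice to exceed them. The genes were chosen partly on irradiated against non-irradiated tissue, and nothing is read from these numbers of libraries.

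**Figure D2:**
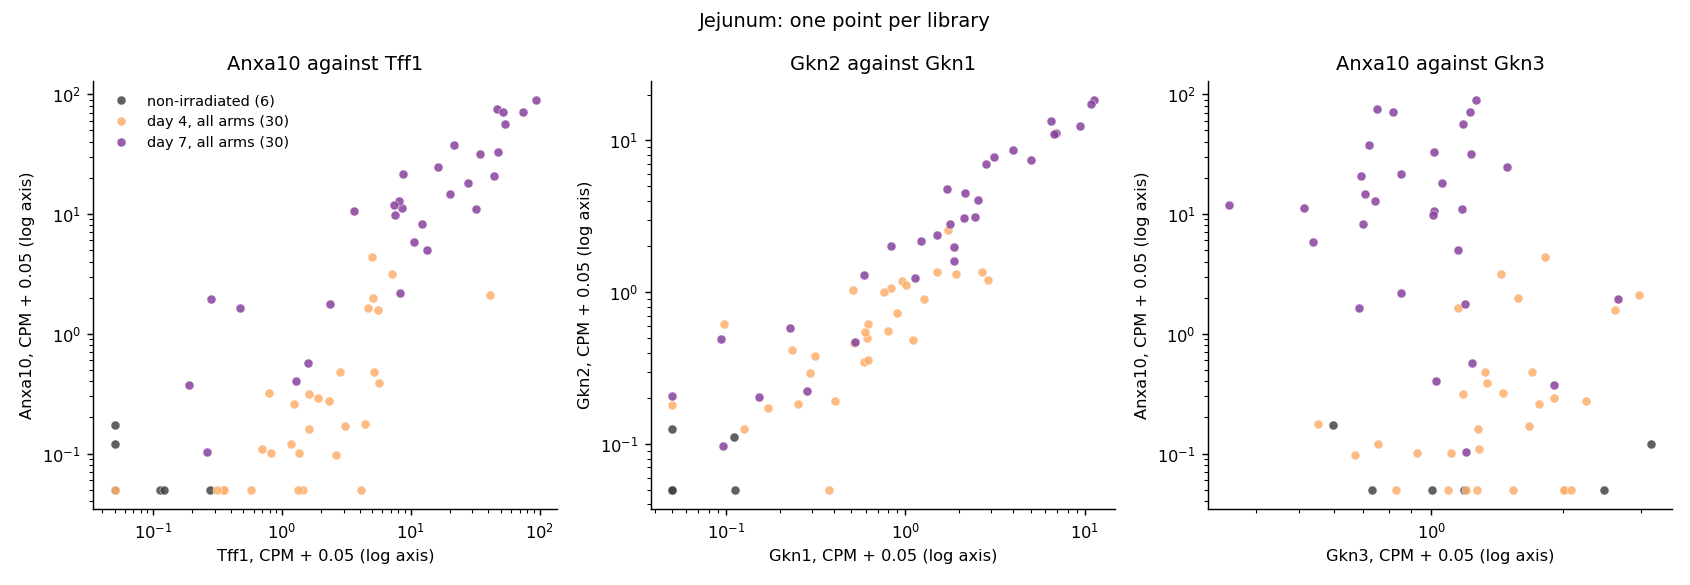
Each point is 1 jejunum library, with CPM plus 0.05 of 2 genes on log axes: Anxa10 against Tff1, Gkn2 against Gkn1, and Anxa10 against Gkn3. The 30 libraries of day 7 spread along a diagonal in the first 2 panels, above most of the 30 of day 4 and the 6 non-irradiated, and show no diagonal against Gkn3. The separate counts of Gkn1 and Gkn2 are uncertain.

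Day 7 was compared with day 4 in the injected arms, all of library series 3. The rises of Tff1 and Anxa10 and the fall of Gkn3 were reasons for choosing these genes and may have been seen in the injected arms too, so these 3 are described without a test. Under injected vehicle, Anxa10 was higher on day 7 by 4.22 ± 1.16 on the log2 scale (SE), Tff1 by 2.95 ± 1.02, and Gkn3 differed by -0.10 ± 0.35. Anxa10 passed the filter only through day 7, since 3 of 12 injected libraries of day 4 were past its minimum against 10 of 12 on day 7. Gkn2 rose by 2.73 ± 0.93 (edgeR adjusted p = 0.0183) and Tff2 by 2.36 ± 0.91 (0.0346). Gkn1 differed by 1.76 ± 0.91 and did not pass (edgeR adjusted p = 0.108). Gkn2, Tff2 and Gkn1 ran closely with Tff1 and Anxa10 over the jejunum libraries of day 7. Their p-values in both injected arms are therefore not independent of the choice of the genes and are no separate support. Of the 6 members that passed the filter 4 were called, where 50.6% of all tested genes were, and nothing is read from that count. The days overlapped for each of the 4, because 2 injected vehicle libraries of day 7 held at most 1.55 CPM of Tff1 and 0.516 of Anxa10.

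Under injection, Anxa10 was between 0 and 2.07 CPM on day 4 and between 1.72 and 75.6 on day 7, higher by 4.99 ± 1.18 on the log2 scale (SE). Gkn2 rose by 2.74 ± 0.91 (edgeR adjusted p = 0.0202). Gkn1 differed by 2.13 ± 0.89 (edgeR adjusted p = 0.0592) and Tff2 by 1.57 ± 0.86 (0.142). Gkn3 had a median of 1.75 CPM on day 4, between 0.707 and 2.92, and of 0.681 on day 7, between 0.462 and 1.15, a log2 difference of -1.24 ± 0.36. Tff1 differed by 1.09 ± 0.93, and that value turned on replicate 4 of day 4, at 41.4 CPM where the other 5 libraries had a mean of 3.52. Without replicate 4 the Tff1 difference was 2.20, and that of Tff2 was 2.49 (edgeR adjusted p = 0.0418). Here 3 of 6 were called, where 41.0% of all tested genes were, and nothing is read from that count.

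The tested calls were not kept in all alternatives. Under injected vehicle, Gkn2 was not called without replicate 1 (edgeR adjusted p = 0.0898) or replicate 5 (0.106), nor with a replicate block (0.0669). Tff2 was not called without replicate 1, 3, 5 or 6 (edgeR adjusted p between 0.0613 and 0.177), nor with a replicate block (0.0539). Under injection, Gkn2 was not called without replicate 1 (edgeR adjusted p = 0.0501) or replicate 6 (0.126). The untested difference of Anxa10 was between 3.64 and 6.70 over the alternatives under injected vehicle and between 3.95 and 5.71 under injection.

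The untreated and oral arms share their libraries with the comparisons that chose the genes, so their differences between days are given without p-values. Anxa10 was higher on day 7 by 5.12 ± 1.12 on the log2 scale (SE) in untreated jejunum, 6.21 ± 1.13 under oral vehicle and 6.77 ± 1.36 under powder. Tff1 was higher by 3.30 ± 0.96, 3.93 ± 0.95 and 2.13 ± 0.93, and Gkn2 by 2.64 ± 0.78, 3.90 ± 0.79 and 1.71 ± 0.77. Tff2 differed by 2.72 ± 0.79, 3.01 ± 0.72 and 1.69 ± 0.76, and Gkn1 by 1.34 ± 0.78, 2.70 ± 0.78 and 0.92 ± 0.80. Members called were 4 of 6 in untreated jejunum (41.0% of all genes), 5 of 6 under oral vehicle (25.7%) and 1 of 6, Anxa10, under powder (36.9%). The choice of the genes had used these libraries, so nothing is read from these counts or from their difference between arms. Within the library series the untreated difference of Anxa10 was 4.90 in series 1 and 5.34 in series 2, and that of Tff1 was 1.55 and 3.93. Whether the arms differ in their change between days was not tested.

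**Figure D3:**
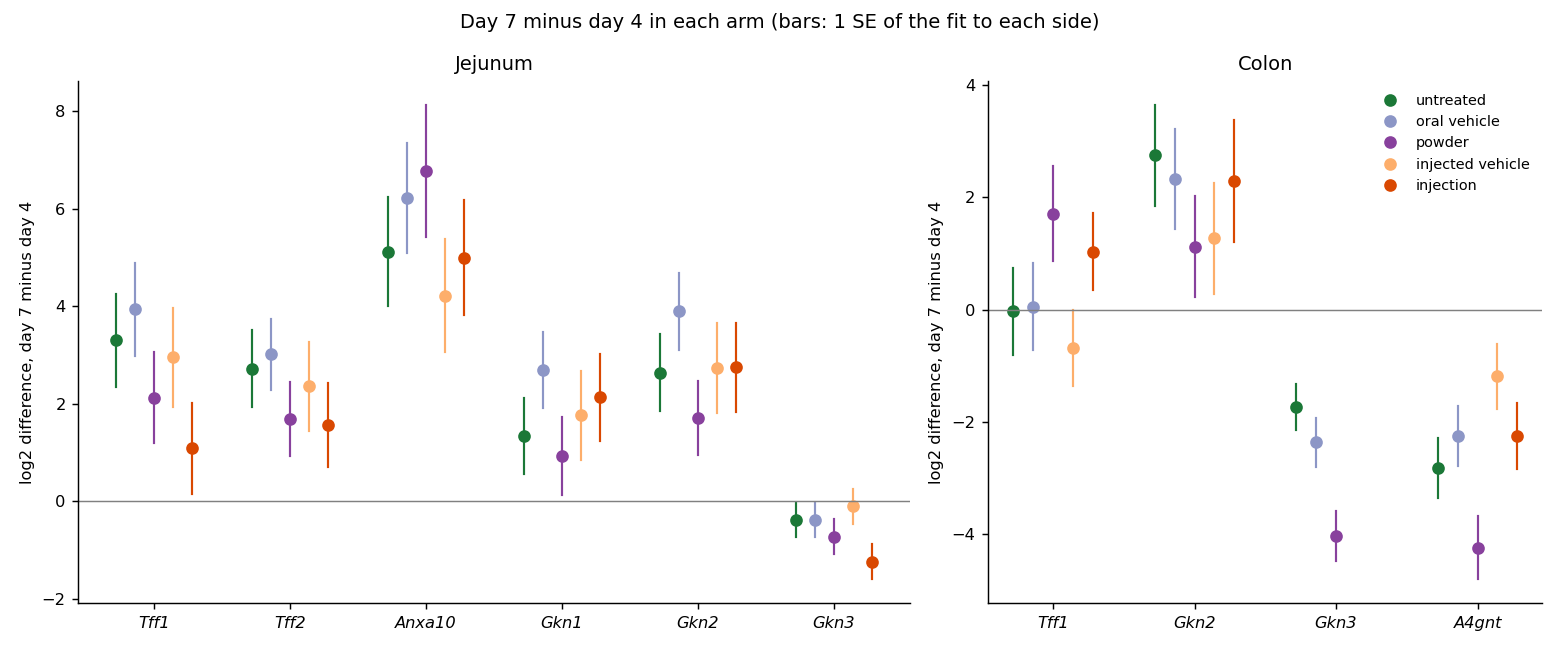
Fitted log2 difference, day 7 minus day 4, with 1 SE to each side (bars), for 6 genes in jejunum and 4 in colon, coloured by arm. In jejunum Anxa10 lies between 4.22 and 6.77 in the 5 arms, and in colon A4gnt lies between -4.23 and -1.18; Gkn3 in colon is shown for the 3 arms in which it passed the filter.

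Other measurements also changed in jejunum by day 7. The mitochondrial share of counts was 12.3% ± 6.95 (SD, n = 6) in non-irradiated jejunum, 12.7% in untreated libraries of day 4 and 5.39% in those of day 7. The summed level of the jejunum enterocyte markers (5 of 6 in the table) was between 30620 and 39910 CPM without irradiation and between 4129 and 22060 on day 7. Under injected vehicle the mitochondrial share was 18.5% on day 4 and 6.24% on day 7. Their part in the levels of the gastric-type genes was not tested.

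Markers of gastric chief and parietal cells (6 of 6 in the table) were also higher on day 7 as a sum, mainly through Lipf in untreated jejunum. Their correlation with the gastric-type genes was not computed. Their summed level had a median of 0.407 CPM in non-irradiated jejunum, between 0.142 and 0.558. In untreated libraries it was 1.69 on day 4, between 0.0814 and 6.64, and 7.34 on day 7, between 1.39 and 12.4. Under injected vehicle it was 2.00 on day 4 and 7.88 on day 7, by the medians. Lipf, the gastric lipase gene, made up most of the sum in untreated jejunum, with 798 counts on day 7. Atp4b, a subunit of the acid pump that defines parietal cells, had 0 counts in non-irradiated and untreated jejunum, and the chief-cell chitinase gene Chia had at most 2 counts in those groups. Exocrine pancreas markers (7 of 8 in the table) summed to at most 1.49 CPM in any library. Of the squamous list, Krt15 had 380 CPM without irradiation and 1966 in untreated jejunum of day 7, while the defining genes Krt5, Krt13 and Ivl had 0, 1 and 0 counts on that day. Lists of other cell types moved as well: from non-irradiated to untreated jejunum of day 7 the median sums went from 2.00 to 10.9 CPM for urothelium, from 2.00 to 16.4 for fibroblasts, from 1.32 to 9.73 for smooth muscle and from 5623 to 1505 for goblet cells. The part of such cells in the result was not tested beyond these levels.

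Compound Kushen powder was compared with its oral vehicle, again without a test, because the genes were chosen partly on it. In jejunum on day 7 all 5 genes were lower under powder than under oral vehicle, which had the highest mean of all jejunum groups for each. By mean, untreated jejunum of day 7 lay between powder and vehicle, with 18.0 CPM of Tff1 and 18.05 of Anxa10. Powder had means of 7.33 and 8.90 CPM and oral vehicle 42.7 and 45.5. By median, untreated jejunum was close to powder for both genes. Whether the difference comes from powder or from a high vehicle group was not tested. Tff1 had a median of 7.78 CPM under powder, between 0.210 and 12.3, against 36.9, between 0.422 and 94.3, under oral vehicle. Anxa10 had 8.99 CPM, between 0.0524 and 21.5, against 53.8, between 1.58 and 88.3. The groups overlapped for both genes, though 5 of the 6 vehicle libraries lay above every powder library in Tff1 and 4 did in Anxa10. The log2 differences were -2.74 ± 0.90 (SE) for Tff1, -2.51 ± 0.69 for Tff2, -2.37 ± 0.89 for Anxa10, -2.59 ± 0.76 for Gkn1, -2.38 ± 0.72 for Gkn2 and -0.26 ± 0.36 for Gkn3. None of the 6 was called, in a comparison with 1 call among all genes (0.008%). Within the library series Anxa10 differed by -2.39 and -2.31, and Tff1 by -3.47 and -1.43. The chief and parietal sum was 4.67 CPM under powder and 10.1 under oral vehicle, by the medians, and the part of those markers was not tested.

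On day 4 in jejunum, none of the 6 was called under powder, with 1 gene called in all (0.008%). Tff1 had a median of 1.36 CPM under powder and 2.93 under oral vehicle, with a log2 difference of -0.93 ± 0.93 (SE). Anxa10 had 10 counts under powder and 87 under vehicle, of which 2 libraries held the most, and a log2 difference of -2.93 ± 1.53. The other 4 were between -1.19 and 0.08.

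Compound Kushen injection was compared with injected vehicle, a comparison that the reasons for choosing the genes do not name. None of the 6 jejunum members was called on either day, and no gene at all was (0.0% on day 4 and 0.0% on day 7). At an unadjusted p under 0.05, edgeR held 1012 genes on day 4 and 342 on day 7, and DESeq2 held 1159 and 421 with 10 and 2 past adjustment. On day 7, Tff1 had a median of 14.2 CPM under injection and 22.1 under vehicle, and its log2 difference was -0.00 (approximate 95% interval -1.79 to 1.78; edgeR adjusted p = 0.999). Anxa10 differed by 0.62 (-1.20 to 2.45; edgeR adjusted p = 0.998), Gkn1 by 0.45 (-1.15 to 2.06), Gkn2 by 0.35 (-1.24 to 1.94) and Tff2 by 0.14 (-1.44 to 1.72). Gkn3 differed by -0.72 (-1.42 to -0.03; edgeR adjusted p = 0.998). On day 4, Tff1 differed by 1.86 (-0.09 to 3.82; edgeR adjusted p = 0.585), and by 0.60 without replicate 4. The intervals reach differences of over 1 on the log2 scale in both directions for the 5 genes on day 7, so these values do not show that injection and vehicle act alike.

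**Figure D4:**
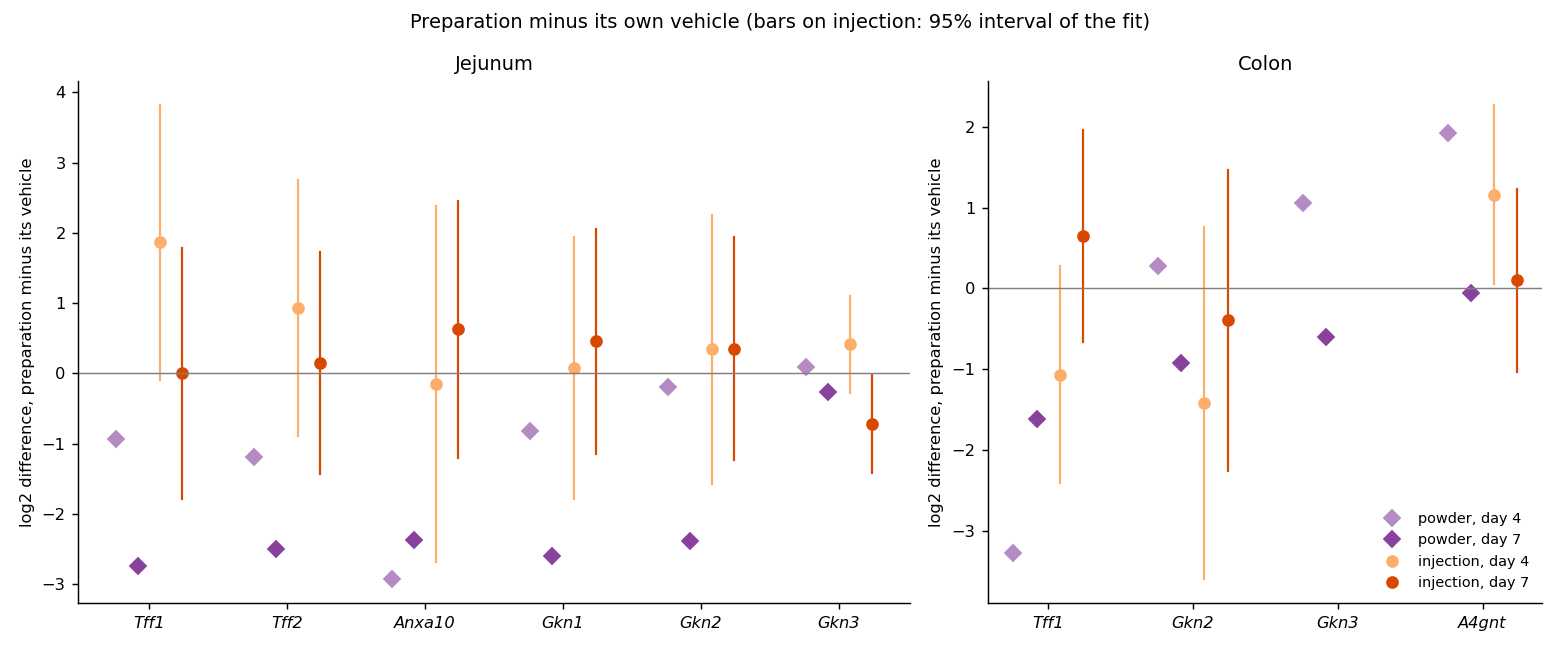
Fitted log2 difference of each preparation from its own vehicle on day 4 and day 7; diamonds are powder minus oral vehicle, without interval, and circles are injection minus injected vehicle with an approximate 95% interval. In jejunum on day 7 the powder values of Tff1, Tff2, Anxa10, Gkn1 and Gkn2 lie between -2.74 and -2.37 and the injection values between -0.00 and 0.62; in colon on day 4 A4gnt is at 1.92 under powder and 1.16 under injection.

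Powder and injection differ in route, vehicle and library series, and no test of one against the other was made. For the 5 jejunum genes on day 7 both sets of values are given side by side only.

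In the colon the pattern was another. Gkn3 and A4gnt were present without irradiation and lower on day 7 after it. Tff1, Gkn2 and the other members had group means of at most 3.38 CPM. By mean, Tff1 was higher than without irradiation in most irradiated groups. Gkn3 had 17.2 ± 6.56 CPM (SD, n = 6) in non-irradiated colon, between 8.24 and 28.3. Untreated libraries held between 0.273 and 1.35 CPM on day 4, with a median of 0.717, and between 0.144 and 0.398 on day 7, with a median of 0.186. Neither group overlapped the non-irradiated one. The log2 difference from non-irradiated colon was -4.52 ± 0.37 (SE) on day 4 and -6.25 ± 0.41 on day 7, and within the library series on day 7 it was -6.24 and -6.27. In all 10 irradiated colon groups the highest Gkn3 library was at 1.90 CPM, so each lay below the lowest non-irradiated library.

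A4gnt, which caps gland mucin with N-acetylglucosamine, had 11.7 ± 5.22 CPM (SD, n = 6) in non-irradiated colon, between 2.35 and 17.9. In untreated colon it was 8.13 ± 5.39 on day 4, between 1.31 and 13.8, and 1.13 ± 0.764 on day 7, between 0.353 and 2.61. The log2 difference was -0.56 ± 0.48 (SE) on day 4 and -3.37 ± 0.54 on day 7. The day-7 group overlapped the non-irradiated one through its highest library and the lowest non-irradiated one. By mean, A4gnt ran from powder day 4 (17.3 CPM) through non-irradiated, injection day 4 (10.8), untreated day 4, oral vehicle day 4 (4.93) and injected vehicle day 4 (4.83) to the 5 groups of day 7, between 0.972 and 2.28. No neighbouring pair differed by more than its pooled SD.

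**Figure D5:**
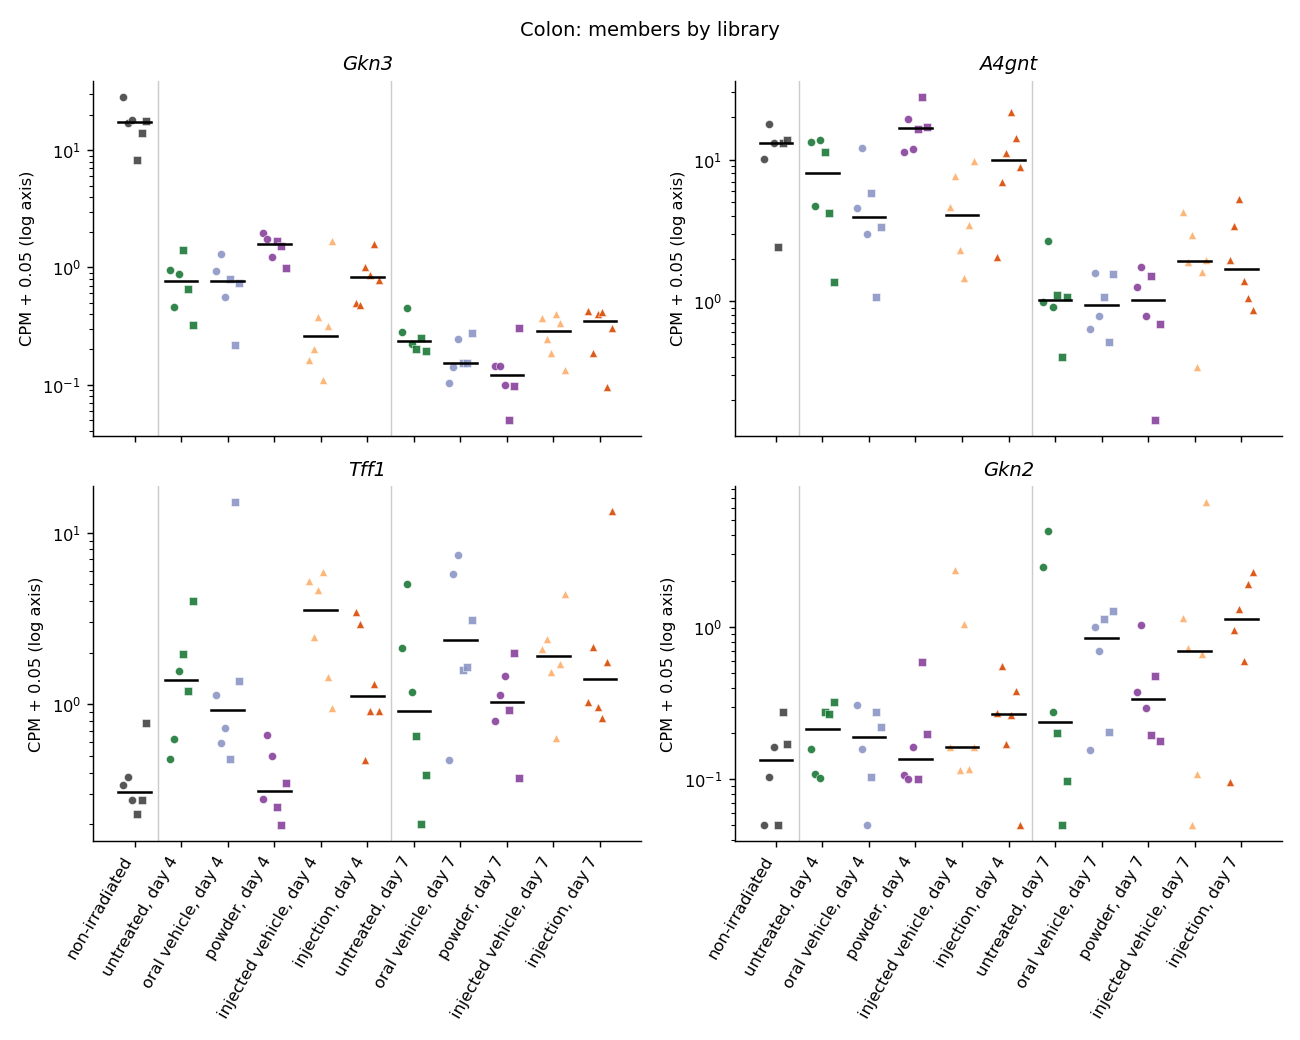
CPM plus 0.05 on log axes for 4 genes in every colon library, by group; circles, squares and triangles are library series 1, 2 and 3, and black lines are group medians. Gkn3 is at 8.24 CPM or more in non-irradiated libraries and below 2 in all irradiated ones, and A4gnt on day 4 is at 11.3 or more in all 6 powder libraries.

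Under powder on day 4, A4gnt in colon was between 11.3 and 27.7 CPM, with a median of 16.8, against 1.02 to 12.1, with a median of 3.89, under oral vehicle. Only the highest vehicle library reached into the powder range. Gkn3 was between 0.944 and 1.90 CPM under powder and between 0.170 and 1.25 under vehicle. The log2 differences were 1.92 ± 0.50 (SE) for A4gnt and 1.06 ± 0.35 for Gkn3, and within the library series 1.11 and 2.60 for A4gnt and 0.83 and 1.31 for Gkn3. Tff1 was lower under powder, by -3.27 ± 0.86, but the vehicle mean of 3.17 CPM rested on replicate 5 at 14.9 and was 0.811 without it. Without replicate 5 the difference of Tff1 was -1.19. Of the 4 members that passed the filter in colon, 3 were called, where 11.8% of all genes were, and nothing is read from that count.

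Colon markers also differed between these groups, and their correlation with A4gnt and Gkn3 was not computed. The summed colon epithelium markers (7 of 7 in the table) had a median of 23360 CPM without irradiation, 9662 in untreated colon of day 4 and 3740 on day 7. On day 4 they were 10040 under powder, between 6198 and 16310, and 8406 under oral vehicle, between 1220 and 12670. Goblet cell markers (6 of 6) had medians of 10530 and 7295 CPM in those groups. The mitochondrial share was 12.3% without irradiation, 9.16% and 3.95% in untreated colon, and 9.58% and 8.40% under powder and oral vehicle on day 4. Their part was not tested.

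On day 7 the mean of A4gnt was 0.976 CPM under oral vehicle and 0.972 under powder, a log2 difference of -0.06 ± 0.55. None of the 4 members and no gene at all was called (0.0%), while 462 genes had an unadjusted p under 0.05 in edgeR and 543 in DESeq2, which called 2 after adjustment. For injection against injected vehicle, 3 members passed the filter in colon, none was called, and no gene was called by edgeR on day 4 (0.0%) or day 7 (0.0%). At an unadjusted p under 0.05 edgeR held 475 and 227 genes and DESeq2 583 and 300, with none past adjustment in either. A4gnt was between 1.99 and 21.9 CPM under injection on day 4 and between 1.41 and 9.69 under vehicle, a log2 difference of 1.16 (approximate 95% interval 0.05 to 2.27; edgeR adjusted p = 0.871). On day 7 it was 0.10 (-1.03 to 1.23; edgeR adjusted p = 1.0).

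Between days, A4gnt in the colon fell under injection by 2.24 on the log2 scale (SE 0.59; edgeR adjusted p = 0.0045), from a median of 9.99 CPM to 1.62. It was 4.00 and 1.86 CPM under injected vehicle, a log2 difference of -1.18 ± 0.58 that did not pass (edgeR adjusted p = 0.13). Of 3 members tested, 1 was called under injection (40.8% of all genes) and 0 under injected vehicle (27.4%). Gkn3 did not pass the filter in the injected colon fit. Its libraries did not overlap between days under injection, with 0.431 CPM or more on day 4 and 0.374 or less on day 7, and did overlap under injected vehicle. In the untreated, oral vehicle and powder arms A4gnt was lower on day 7 by log2 differences of -2.81 ± 0.53, -2.25 ± 0.53 and -4.23 ± 0.56 (SE), and Gkn3 by -1.74 ± 0.40, -2.36 ± 0.44 and -4.03 ± 0.45. Called were 3 of 4 in untreated colon (36.5% of all genes), 3 of 4 under oral vehicle (27.4%) and 2 of 4 under powder (49.3%). The choice of genes had used these libraries, so nothing is read from these counts.

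Tff1 and Gkn2 in the colon were low and uneven. Tff1 had 0.329 ± 0.201 CPM (SD, n = 6) without irradiation, 1.59 ± 1.28 in untreated colon on day 4 and 1.55 ± 1.83 on day 7. Its log2 differences were 2.25 ± 0.85 and 2.22 ± 0.86 (SE). On day 7 that of Tff1 was 3.26 within library series 1 and -0.04 within series 2. By mean, Tff1 was highest under injected vehicle on day 4, at 3.38 CPM. Each library there, from 0.906 CPM up, exceeded the highest non-irradiated one at 0.726. The other irradiated groups had Tff1 means between 1.06 and 3.29 CPM, except powder on day 4 at 0.323. The means of oral vehicle on day 4 and injection on day 7 each rested largely on 1 library. These levels were not tested. Gkn2 was 0.0858 CPM without irradiation, 0.156 on day 4 and 1.18 on day 7, where its median was 0.189, since replicates 1 and 2 of series 1 held most of the counts. The day-7 difference of 3.57 ± 0.97 was 5.21 within series 1 and -0.76 within series 2. Of the 4 members tested, 2 were called on day 4 (46.9% of all genes) and 4 on day 7 (63.6%), as a description. Between days in the injected arms Tff1 differed by -0.69 and 1.03, and Gkn2 by 1.27 and 2.29 and did not pass (edgeR adjusted p = 0.357 and 0.0984), under injected vehicle and injection.

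The other members were near the limit of detection in colon. Anxa10 had 0 counts on day 4 in the untreated, oral vehicle and powder groups, which allows up to 3 counts in each. On day 7 it had 22 counts under oral vehicle, spread over 4 of 6 libraries and at least 6.56-fold more. Untreated colon had 33 counts on day 7, all in replicates 1 and 2, and its mean of 0.246 CPM was 0.0744 without replicate 2. In the injected arms it had 1 count on day 4 in each and 15 and 22 on day 7, of which replicate 6 held 14 under vehicle and 17 under injection. Without replicate 6 the day-7 means went from 0.106 to 0.00914 CPM and from 0.182 to 0.0448. Gkn1 had 1 count in non-irradiated colon, 36 in untreated colon on day 4 (34.2, 5.76 to 1389) and 41 on day 7 (34.9, 5.92 to 1411). The day-7 counts of Gkn1 were uneven, with 38 of them in replicates 1 and 2, a median of 0.0502 CPM and a mean of 0.313 that was 0.162 without replicate 1. Tff2 stayed between 0.0563 and 0.323 CPM in all colon groups. The intervals and limits cover counting error only.

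Muc5ac and Muc6, the main gel-forming mucins of the stomach surface and glands, did not pass the filter in any fit. Muc5ac had its highest group mean in colon under oral vehicle on day 7, at 0.192 CPM from 24 counts, and 16 counts in jejunum of the same arm and day. In untreated jejunum on day 7 the row taken as Muc5ac had 1 count. Muc6 had its highest mean in untreated jejunum on day 4, at 0.218 CPM from 20 counts, against 2 counts in non-irradiated jejunum (ratio 9.44, 2.29 to 83.3), and 8 counts on day 7. The interval covers counting error only. Muc5ac and Muc6 were thus close to the limit of detection in all groups.

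Without irradiation, A4gnt and Gkn3, the members that passed the filter there, were lower in jejunum than in colon, which is given as a description. A4gnt had 4 counts in jejunum and 1231 in colon, a log2 difference of -7.36 ± 0.65 (SE), and Gkn3 had 128 and 1798, a difference of -3.06 ± 0.41. Neither gene's libraries overlapped between the tissues. Both were called, where 77.5% of all genes were, in libraries that the choice of genes had used in part. A4gnt passed the filter only through colon, where it is high, and nothing is read from these calls. Tff2 had 2 counts in jejunum and 15 in colon (ratio 6.48, 1.51 to 58.4), and Gkn2 had 2 and 9 (3.89, 0.805 to 37.0). These intervals cover counting error only.

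Over all 66 libraries of a tissue, the genes most like each member by Pearson correlation of log2(CPM + 1) were looked up among genes with a mean of at least 1 CPM. In jejunum, Tff1 was most like Tff2 (r = 0.956), Gkn2 (0.929) and Fa2h (0.922), the fatty acid 2-hydroxylase gene. Anxa10 was most like Gkn2 (0.948), Fa2h (0.930) and Septin5 (0.919). Gkn1 was most like Gkn2 (0.949), Dpysl3 (0.933) and Fer1l4 (0.908), and Gkn2 was most like Gkn1, Anxa10 and Fa2h (0.945). Reads of Gkn1 and Gkn2 may have been split between them, so their likeness to each other is uncertain. Tff2 was most like Tff1, Gkn2 (0.941) and Fa2h (0.906). Gkn3 in jejunum had no close match, with Ccnt2 at 0.708, Mapk1ip1 at 0.697 and Fam193b at 0.691. In colon, Gkn3 was most like Cyp2w1 (0.937), Cacna1h (0.931) and AABR07059002.1 (0.919), and A4gnt most like Slc12a8 (0.942), Pde2a (0.942) and Chst9 (0.941). Colon Tff1 was most like Mroh6 (0.816), Rasgrf1 (0.790) and Dusp10 (0.788). The libraries share groups, series and damage, so the values describe patterns over libraries.

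Other genes of the stomach were taken from lists and compared between untreated irradiated and non-irradiated tissue with edgeR. Genes with a mean under 0.5 CPM without irradiation could pass the filter only through groups where they are higher, so they are given by level, and the counts of rising genes, which include them, support nothing. Genes whose mean fell to under 0.5 CPM are given by level as well, and the counts of falling genes, which include them, support nothing either. Among gastric acid, pepsinogen and hormone genes, 8 of 14 were tested in jejunum, of which 2 rose and 1 fell on day 4, and 5 rose and 3 fell on day 7. Lipf had no counts in non-irradiated jejunum, 1.59 ± 2.30 CPM (SD, n = 6) on day 4 and 5.78 ± 4.12 on day 7. Pgc, the pepsinogen C gene, was at 0.0220, 0.395 and 0.492 ± 0.482 CPM. Bhlha15, the secretory-cell factor also called Mist1, was at 0.476 CPM without irradiation and 1.80 ± 0.546 on day 7. Pga5, another pepsinogen, was at 1.22 CPM without irradiation and 0.226 on day 4. In colon 6 were tested, with 0 rising and 1 falling on day 4 and 1 and 3 on day 7. On day 7 the anion exchanger gene Slc26a7 was at 0.1385 CPM, against 4.99 without irradiation, and gastrin, Gast, at 0.1151 against 1.355. Cathepsin E, Ctse, rose by 1.59 on day 7 (edgeR adjusted p = 0.0132).

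Of the other gastric surface and gland genes, 9 of 12 were tested in jejunum, with 2 rising and 1 falling on day 4, and 6 and 1 on day 7. Sult1c2, a sulfotransferase, was at 0.249 CPM without irradiation and 7.43 ± 4.20 on day 7. The water channel gene Aqp5 was at 0 and 0.889 ± 1.30 CPM, and the gastric tight junction gene Cldn18 at 0.0217 CPM and, on day 4, 0.225 ± 0.334. Capn9, a calpain of digestive epithelium, fell by 2.53 (edgeR adjusted p = 4.4e-06). In colon 7 were tested, with 1 rising and 0 falling on day 4, and 2 and 1 on day 7. Vsig1, a junction protein of gastric epithelium, was at 0.0864 CPM without irradiation and 29.8 ± 13.7 on day 7, and Psca at 0.132 and 0.708 ± 0.188.

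Among stomach transcription factors 6 of 10 were tested in jejunum, with 0 rising and 1 falling on day 4, and 2 and 2 on day 7. Pdx1, the factor of antrum and duodenum, rose by 1.60 ± 0.44 (edgeR adjusted p = 0.00253), Gata6 fell by 1.41 (2.2e-05) and the mucous-cell factor Spdef fell by 1.02 (0.00324). In colon 4 were tested, none changing on day 4 by the test, and 1 rising and 2 falling on day 7, with Foxa2 higher by 1.22 (edgeR adjusted p = 0.000732) and Spdef lower, at -1.54 (7.72e-05). All 9 intestinal factors were tested in both tissues. In colon on day 4, 1 rose and 7 fell, among them the caudal factors Cdx2, which fell by 0.90 (edgeR adjusted p = 2.07e-06), and Cdx1, which fell by 1.25 (1.07e-05), and Hnf4g rose by 1.68 (1.79e-05). On day 7 in colon 1 rose and 6 fell. In jejunum 1 rose and 6 fell on day 4, with Cdx1 falling by 1.14 (edgeR adjusted p = 0.000745), and 2 rose and 2 fell on day 7.

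Of the other trefoil and mucin genes, 4 were tested in jejunum: 1, the membrane mucin gene Muc13, rose and 2 fell on day 4, and 0 rose and 3 fell on day 7. Tff3, the trefoil factor of goblet cells, went from 424 ± 361 CPM to 119 ± 56.9 on day 7, falling by 1.67 on the log2 scale (edgeR adjusted p = 0.00121). Muc2, the gel-forming mucin of intestine, counted under AABR07006030.1, went from 1974 ± 1614 to 270 ± 108 CPM, falling by 2.77 (edgeR adjusted p = 6.36e-06). Muc5b was at 1.38 CPM without irradiation and 0.122 on day 7. In colon 6 were tested, with 2 rising and 0 falling on day 4, and 2 and 1 on day 7. Muc20 was at 0.0771 CPM without irradiation and 4.42 on day 7, Muc13 at 0.126 and 2.74, and Muc2 fell by 1.66 on day 7 (edgeR adjusted p = 6.59e-05).

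Of the mucin O-glycan enzymes, the family around A4gnt, 14 of 16 were tested in jejunum, with 6 rising and 3 falling on day 4, and 7 and 3 on day 7. Gcnt1, which builds the core branch of O-glycans, rose by 2.61 ± 0.35 on day 7 (edgeR adjusted p = 3.59e-07), and C1galt1, which makes the core, by 1.68 ± 0.31 (2.49e-05). In colon 15 were tested, with 4 rising and 3 falling on day 4, and 6 and 6 on day 7. B3gnt6, the core 3 enzyme of colon mucin, fell by 4.63 (edgeR adjusted p = 2.33e-08), Gcnt4 fell by 2.85 (1.17e-10), and C1galt1 rose by 1.67 (1.78e-07). All 11 other annexins were tested. In colon 5 rose and 1 fell on each day, with Anxa1, an anti-inflammatory annexin, going from 1.59 ± 0.734 to 249 ± 108 CPM on day 7 (edgeR adjusted p = 2.15e-09). In jejunum 3 rose and 0 fell on day 4, and 4 and 1 on day 7, with Anxa5 higher by 2.18 ± 0.70 (edgeR adjusted p = 0.00803). The shares of all genes called in these comparisons are those given above, between 44.0% and 63.6%, and no list was tested as a whole.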

How the data were processed

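RNA-seq counts per gene were deposited by the authors in 2 tables of raw counts, with 168 columns for 132 libraries; 36 libraries stand in both tables with identical values and were used once. Reads were aligned with STAR 2.7.10a to mRatBN7.2, per the submitters' processing notes; the counting tool, annotation and strand setting were not given in the sources used here. Counts were normalised by TMM and tested with the quasi-likelihood F test of edgeR 4.0.16 (R 4.3.3), after filterByExpr by group, with Benjamini-Hochberg adjustment over all genes tested and a threshold of 0.05. Non-irradiated, untreated and oral groups of a tissue were fitted together with library series as a term, and injected groups separately. Ratios of groups with few counts carry exact 95% intervals, and 0 counts were bounded at 3 counts over the group; these cover counting error only. The script was checked on simulated counts. All 9 members are named, with up to 3 called genes of smallest p per list and comparison, and the 3 genes most like each member with a mean of at least 1 CPM. The members and lists were chosen with earlier results of these data known. Alternatives were DESeq2 1.42.0, RLE scaling, no filter, a replicate block, each library series alone and leaving out each replicate.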

Additional observations from a re-analysis of the deposited data

Results flagged for a closer look

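Among 63 gene and group combinations with a mean of at least 1 CPM, 11 had a highest library far from the other 5 for the spread of its group. Chance marks about 1 in 20 where values are independent and normally spread, which was not tested here. Several combinations share a library, so 11 of 63 is not set against that rate. For Tff1 these were replicate 5 of oral vehicle in colon on day 4 (14.9 CPM), replicate 1 of powder in jejunum on day 4 (3.06), replicate 4 of injection in jejunum on day 4 (41.4) and replicate 6 of injection in colon on day 7 (13.3). Replicate 4 of injection in jejunum on day 4 was also far above the others in Tff2 (4.60 CPM). Replicate 6 of injection in jejunum on day 7 stood apart in Anxa10 (75.6 CPM), Gkn1 (11.2) and Gkn2 (18.3) together. Replicate 6 of injected vehicle in colon on day 7 stood apart in Gkn2 (6.51 CPM), replicate 1 of untreated jejunum on day 7 in Gkn3 (2.61), and replicate 2 of untreated colon on day 7 in A4gnt (2.61).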

How the results depend on the processing

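Of 1224 member values under other settings, 42 lost a call, 6 gained one and 5 values without a test moved by more than the spread. The sign changed in 59, of which 56 were not called under either setting. The 3 called values that reversed did so within library series 2 alone, in colon: Tff1 on day 7 against non-irradiated (-0.0423), Gkn2 in the same comparison (-0.76) and Gkn2 on day 7 against day 4 in untreated colon (-1.78); the cause was not tested. With DESeq2, genes called went from 0 to 2 for powder in colon on day 7, from 1 to 16 for powder in jejunum on day 4, and from 0 to 10 and 0 to 2 for injection in jejunum on days 4 and 7. Without the filter, the 1 call for powder in jejunum on day 7 became 0. Leaving out 1 replicate moved the genes called between days from 3598 to between 1685 and 4072 (injected vehicle, colon), 6168 to between 4043 and 6884 (injected vehicle, jejunum), 4988 to between 3151 and 5403 (injection, jejunum), 5128 to between 2918 and 6388 (untreated, jejunum), 3647 to between 2263 and 3964 (oral vehicle, colon) and 3210 to between 1204 and 5319 (oral vehicle, jejunum). For powder it moved them from 1568 to between 548 and 1829 in colon on day 4 and from 1 to between 0 and 2 in jejunum on both days. RLE scaling changed no call of a member. Of 27 genes listed as most like a member, 17 changed under rank correlation. Genes of a few counts per group are limited by depth.

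With the replicate number as a block, the 1 gene called for powder in jejunum on day 7 became 0. Under injected vehicle in jejunum, the block gave differences between days of 2.31 for Tff2 (edgeR adjusted p = 0.0539) and 2.43 for Gkn2 (0.0669), neither called. In no comparison did all 6 same-numbered pairs correlate above 0.1, so the numbers were not taken to pair the samples, but this rule cannot exclude pairing. Between colon and jejunum, same-numbered libraries correlated at 0.096 to 0.369 under powder and 0.059 to 0.561 under injection on day 4. The other groups held both signs. Whether both tissues came from the same rats stays unknown.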
